A study of Mus musculus with 42 samples.

Results

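The Nduf genes encode subunits of respiratory complex I and proteins that help to assemble it, and their transcripts were followed in 3 tissues of Akt1+/- and wild-type mice: liver, skeletal muscle and visceral fat. The members were all genes whose name on the array starts with Nduf, each read by its brightest probe, which gave 38 of the 27597 genes on the array. The study compared female mice with 1 disrupted copy of Akt1, a kinase of the insulin and growth factor pathway, with wild-type animals at 8 weeks and at 35 weeks of age, all labelled C57BL/6. Wild-type muscle, liver and fat served as the controls, and no group received a drug. Total RNA of each tissue was labelled with Cy3 and hybridised to 1-colour Agilent Whole Mouse 44K arrays. There were 42 arrays in 12 groups, with 3 arrays per tissue and genotype at 8 weeks and 4 at 35 weeks. The labels give 35 weeks for the older mice, whereas the methods name an older age and 3 animals per group. The labels do not say that each array came from a separate mouse, so p-values measure the spread between these arrays. The heterozygous mutation was not restricted to 1 tissue, so that effects within a tissue and effects that reach it from others cannot be told apart.

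Complex I is the entry point of the respiratory chain. It takes electrons from NADH, passes them along a row of iron-sulfur clusters to ubiquinone and pumps protons across the inner mitochondrial membrane. Its N module binds NADH, its Q module reduces ubiquinone, and its membrane arm carries the proton channels. Muscle is rich in mitochondria that supply ATP for contraction, the liver uses them for gluconeogenesis and fat oxidation as well, and white adipocytes hold few.

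Among the members, 9 were placed in the N module, 5 in the Q module, 10 in the proximal and 11 in the distal membrane arm. Some schemes place Ndufa6, Ndufa7 and Ndufa9 in the Q module, whereas here Ndufa6 and Ndufa7 were counted in the N module and Ndufa9 in the proximal arm. The other 3 members were Ndufaf1, an assembly factor, Ndufa12l, the older name of the assembly factor Ndufaf2, and Ndufa4, now regarded as a subunit of complex IV. The 7 core subunits among them, which carry the flavin and the iron-sulfur clusters or form the ubiquinone site, included Ndufv1, Ndufv2, Ndufs1 and Ndufs7. The array held 6 further complex I genes under older names, among them Ndufv3, which the naming rule did not take. The core subunits encoded in mitochondrial DNA were not analysed here.

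Promoter windows from 250 bases before to 50 bases after the transcription start were matched in RefSeq (GRCm38.p6) for 34 of the 38 members. No window was matched for the other 4, Ndufa2 and Ndufb9 among them. The windows were searched on both strands for the letters of 4 motifs that are bound by regulators of mitochondrial genes. The YY1 letters AAGATGGCG were in 13.9% of the 36 windows of members and in 1.4% of all 32851 windows. All 5 matches lay on the strand of the gene and just after the start, and they are shown here because they share this position, with the match in capitals and the build coordinates given after each set.
Ndufa9: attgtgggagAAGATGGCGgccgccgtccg
Ndufc1: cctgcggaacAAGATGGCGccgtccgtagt
Ndufs4: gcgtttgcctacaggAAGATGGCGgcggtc
Ndufs6: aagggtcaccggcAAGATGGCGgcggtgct
Ndufs7: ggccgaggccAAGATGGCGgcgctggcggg
These 30-base stretches lay at chr6:126849096-126849125 for Ndufa9, chr3:51408914-51408943 for Ndufc1, chr13:114388045-114388074 for Ndufs4 and chr13:73328433-73328462 for Ndufs6, all on the minus strand, and at chr10:80249463-80249492 on the plus strand for Ndufs7.

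The NRF1 letters GCGCANGCG, or their reverse complement, were in 25% of the windows of members, in 8 genes, and in 6.25% of all windows. Overlapping matches on both strands were counted as 1 window. One match of each gene is shown, with the match in capitals, because NRF1 is a regulator of many respiratory chain genes and these are the members whose windows hold its letters.
Ndufa11: ctgcactgcgCGCATGCGCgcacgccttgt
Ndufa5: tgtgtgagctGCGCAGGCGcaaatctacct
Ndufa6: cgtggcaccgCGCGTGCGCacgctgaaggg
Ndufa8: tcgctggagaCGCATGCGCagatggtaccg
Ndufb10: tcacctttctGCGCAGGCGtagaggtcccg
Ndufb4: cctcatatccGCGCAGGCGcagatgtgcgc
Ndufs5: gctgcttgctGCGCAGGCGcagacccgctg
Ndufs6: gactgctgtgCGCCTGCGCcggcacttggt
The stretch of Ndufa11 lay at chr17:56717693-56717722 on the plus strand. The others lay on the minus strand, at chr6:24527697-24527726 for Ndufa5, chr15:82354248-82354277 for Ndufa6, chr2:36049328-36049357 for Ndufa8, chr17:24724406-24724435 for Ndufb10, chr16:37654371-37654400 for Ndufb4, chr4:123718265-123718294 for Ndufs5 and chr13:73328478-73328507 for Ndufs6. Ndufs6 held both motifs. The ETS letters CCGGAAG were in 13.9% of the windows of members and 8.86% of all windows, and the ERR letters AAGGTCA in 8.33% and 4.72%. A match of letters shows neither binding nor control.

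All levels below are log2 values of the processed signal relative to the 75th percentile of the same array, so that a difference of 1 is a doubling. Levels of different genes were not compared, except that genes were sorted into classes of brightness and levels were summed within lists. Between 56.6% and 68.7% of probes were well above background on each array, and precision is set by how few arrays a group has. Every one of the 38 probes used was well above background on all 42 arrays. Where its spot was kept, Akt1 read lower on the heterozygous than on the wild-type arrays of the same tissue and age, without overlap, with a mean difference of -0.68 in liver, -0.59 in muscle and -0.55 in visceral fat. The limma adjusted p was 0.0168, 0.0762 and 0.0126, respectively, and 0.0717, 0.0397 and 0.0694 if same-numbered arrays of both ages formed blocks. With the mean of all Akt1 probes, of which 1 is dim, the difference was 0.07 in liver and -0.08 in fat and was not called. The Akt1 spot was an outlier and left out on 5 arrays, among them 3 of the 4 wild-type livers at 35 weeks, so that the older livers were compared with 1 wild-type array. Where this probe lies relative to the disrupted part of the gene was not examined. The defining markers of hepatocytes (6 of 6), muscle fibres (8 of 8) and white adipocytes (7 of 7) were well above background on every array of their own tissue. Detection alone did not separate the tissues, since all 7 white-fat genes were so on every muscle array too. On every fat array 4 of 8 muscle and 4 of 6 liver genes were so. The other counts were 2 of 6 liver genes on muscle, and 0 of 8 muscle and 2 of 7 white-fat genes on liver. In Akt1+/- livers at 8 weeks, replicates 1 and 3 read the slow-muscle gene Myh7 at 0.54 and -0.80, against -4.58 or less in the other livers. The genotype difference at 8 weeks was 3.50 for Myh7. For the other slow-muscle genes tested it was -0.54 (Atp2a2), 0.07 (Tnnc1), 0.18 (Myh2), 0.36 (Tnni1) and 0.51 (Tnnt1), and none was called. The counts and medians of the fits in liver are given with and without both replicates. Muscle Akt1+/- replicate 3 at 35 weeks was the highest of the 14 muscle arrays for 36 of the 38 members, and liver wild-type replicate 3 at 8 weeks the highest of the livers for 25.

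The tissues were compared to see where complex I transcripts are abundant. Muscle held most, and fat less than liver after scaling to the 75th percentile, though not for every member after quantile normalisation. Relative to liver, 37 of 38 members were higher in muscle at an adjusted p below 0.05 in limma, when 45% of the 19858 genes tested were. Relative to fat, all 38 were higher in muscle, when 44.9% of genes were. Fat was below liver for all 38, when 45.6% of genes were lower. The median difference of the members was 1.06 for muscle over liver, or 2.08-fold, 2.05 for muscle over fat, or 4.14-fold, and -0.94 for fat against liver, or 0.522-fold. In bulk tissue, fewer cells of a type and less RNA per cell cannot be told apart.

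**Figure D1:**
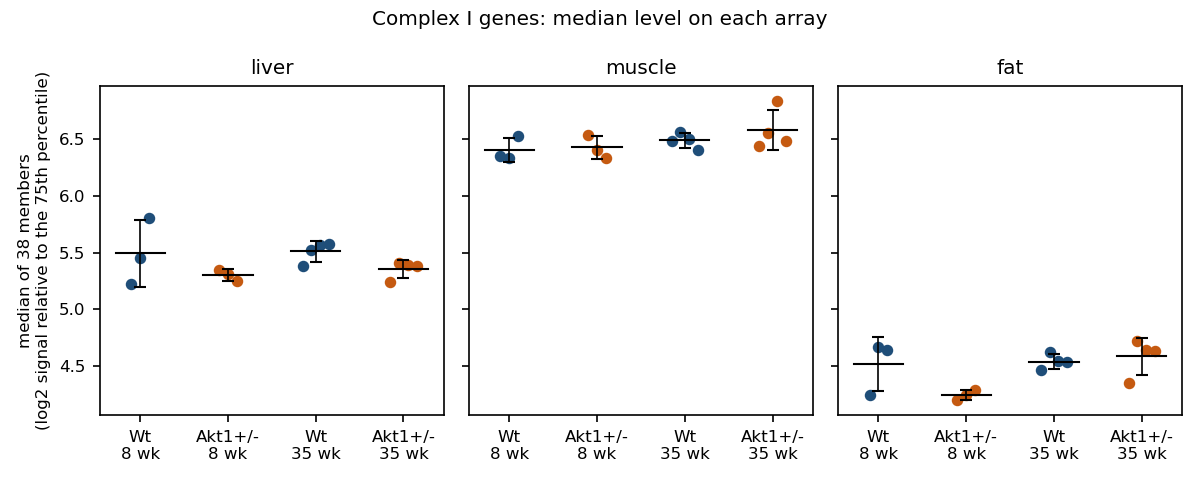
Median log2 level of the 38 Nduf genes on each of the 42 arrays, relative to the array's 75th percentile, by tissue, genotype and age; points are arrays and bars the group mean and SD. The muscle arrays lie between 6.34 and 6.84, the livers between 5.22 and 5.81 and the fat arrays between 4.2 and 4.72, without overlap.

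The order of the tissues held on single arrays for most members. Every muscle array was above every liver array for 32 of 38 members, when this was so for 25% of all genes, and above every fat array for 37, when it was so for 24.4%. Every liver array was above every fat array for 29, against 21.6% of genes. The order of liver and fat depended on the normalisation. When the arrays were forced to 1 distribution (quantile normalisation), the median difference between fat and liver was -0.125, with 20 members lower and 9 higher, and Ndufs5 turned from -0.36 to 0.68. Muscle stayed above fat by a median of 1.36 under the same setting.

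Several core subunits were among the members with the largest differences between tissues. Ndufv2, an iron-sulfur subunit of the N module, ran from 5.15 to 5.65 in muscle, from 3.17 to 3.85 in liver and from 2.10 to 2.85 in fat. Its difference between muscle and fat, 2.91, was the largest of the members. Ndufs1, the largest iron-sulfur subunit, was 1.56 higher in muscle than in liver and 2.81 higher than in fat.

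By role, the median difference between muscle and liver was 1.41 for the 7 core subunits, 1.40 for the Q module, 1.13 for the N module, 1.08 for the proximal and 0.95 for the distal membrane arm. Against fat the same medians were 2.49, 2.49, 2.17, 2.04 and 1.92. Of the members higher in muscle, those closest to liver were the peripheral subunits Ndufa6 (difference 0.17, adjusted p = 0.0275, 0.0578 in a fit of the arrays of both tissues alone, and not called in 5 of the 42 runs that left out 1 array), Ndufb7 (0.55) and Ndufa7 (0.60). Ndufa12l, the assembly factor, was the exception to the order of tissues. It ran from 1.90 to 2.60 in muscle, from 2.34 to 3.04 in liver and from 1.70 to 2.28 in fat, so that the ranges overlapped. Its difference between muscle and liver was -0.41 (adjusted p = 6.14e-07). Its difference between muscle and fat was 0.27 (adjusted p = 0.000239), and -0.000357 under quantile normalisation. Ndufaf1, the other assembly factor, followed the subunits at 0.95 over liver and 2.13 over fat. Between fat and liver the gap was widest for Ndufs6, an accessory subunit of the N module (-1.41), and Ndufa5 (-1.35), and narrowest for Ndufs5 (-0.36) and Ndufa7 (-0.37).

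**Figure D2:**
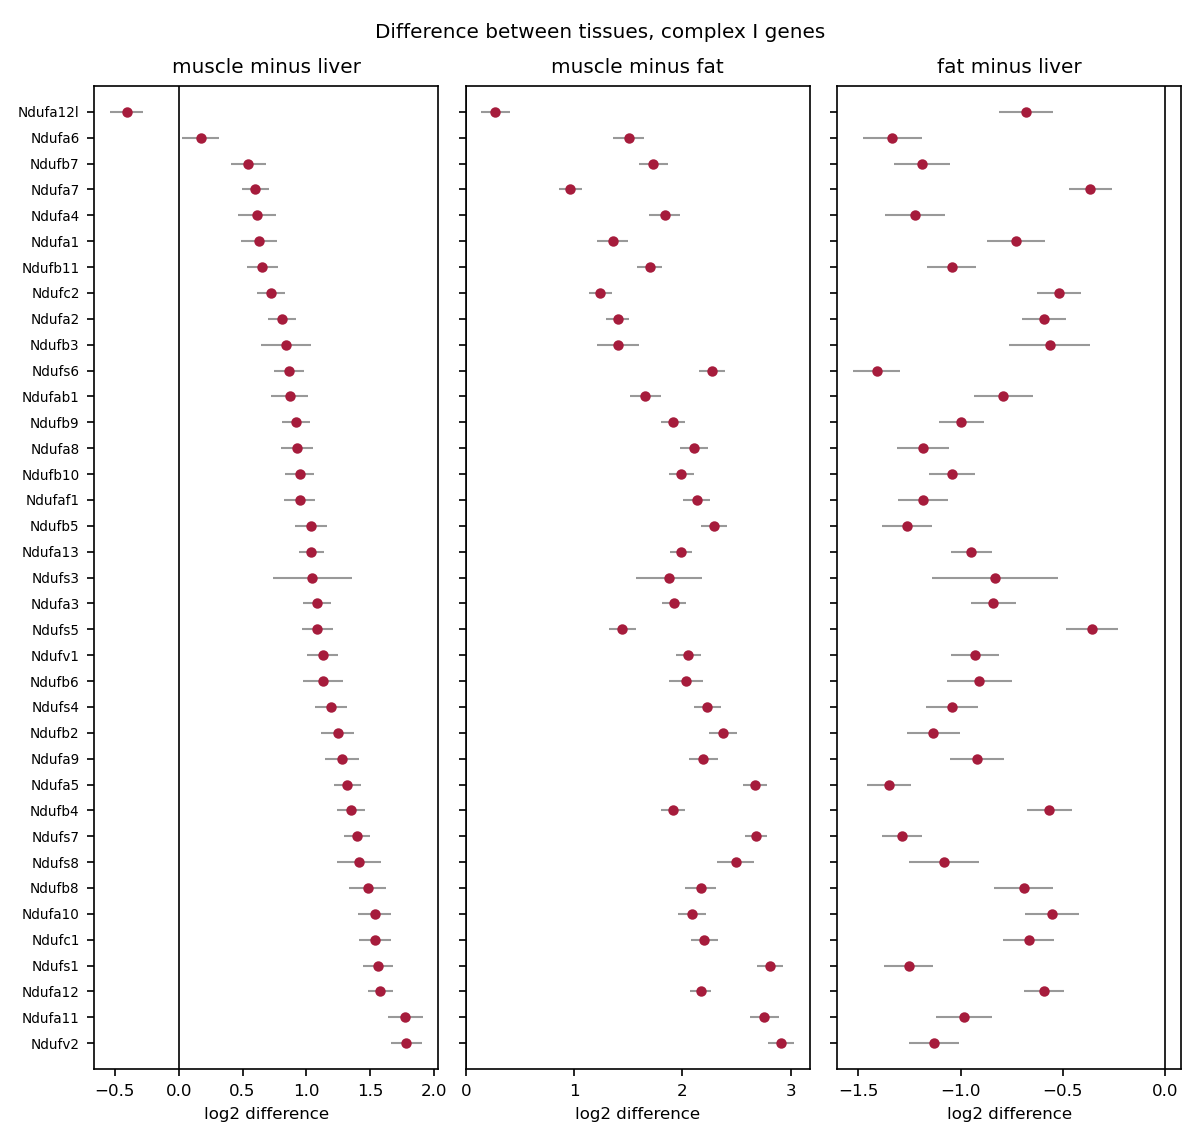
Log2 difference between tissues for 37 of the 38 Nduf genes in the fit over 42 arrays, with 95% confidence intervals, in red where the adjusted p was below 0.05. With this scaling all members drawn lie above 0 for muscle against fat and below 0 for fat against liver, and Ndufa12l alone lies below 0 for muscle against liver. Under quantile normalisation 9 of the 38 are called higher in fat than in liver, a count not read against all genes.

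Complex III and ATP synthase showed the same order in the main normalisation, and complex II and the Cox genes showed it for most genes. All 9 genes of complex III and all 17 of ATP synthase were higher in muscle than in liver and in fat and lower in fat than in liver, as were all 6 complex I genes under older names for muscle against liver. Of the 4 genes of complex II, which feeds electrons from succinate, 3 were higher in muscle than in liver, and all 4 were higher in muscle and in liver than in fat. The Cox genes were taken by name, so that the list holds assembly factors as well as subunits of complex IV. Of 24 Cox genes, 15 were higher and 7 lower in muscle than in liver. Against fat 20 were higher and 3 lower in muscle, and 20 were lower and 2 higher in fat than in liver.

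The effect of Akt1 haploinsufficiency was then examined in each tissue, over both ages. In liver the members read lower in Akt1+/- mice, by a median of -0.20, or 0.869-fold, and 35 of the 38 were below 0. The median over all 17503 genes tested was 0.01. Of the 38 members 4 passed the test, all lower, when 2.37% of all genes were called lower. They were Ndufa13, Ndufa2, Ndufb2 and Ndufb9. A further 17 members had an unadjusted p below 0.05, 21 in all, as did 4578 of the 17503 genes. Other settings gave other counts, 8 by the two-way ANOVA of the methods after adjustment and 16 at its unadjusted threshold. In 1 fit over all 42 arrays 13 members were called. These counts are not read against the 2.37%, which belongs to the main fit.

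Ndufa13, also known as GRIM-19, is an accessory subunit of the proximal membrane arm. It read 7.68, 7.74 and 8.01 in wild-type livers at 8 weeks, and the Akt1+/- livers read 7.43, 7.32 and 7.39. At 35 weeks it read 7.46, 7.64, 7.62 and 7.66 in wild-type livers and between 7.17 and 7.33 in the 4 Akt1+/- livers. The genotypes did not overlap at either age. The difference was -0.37 (SE 0.07, adjusted p = 0.0168), and it passed the test whichever array was left out. Under quantile normalisation, where 0 members were called, it did not pass. Its probe, of 60 bases, lay at chr8:72823192-72823251 on the minus strand (mm8).

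Ndufb9 and Ndufb2, both accessory subunits of the distal arm, showed smaller gaps. Ndufb9 read 7.43, 7.64 and 7.83 in wild-type against 7.24, 7.34 and 7.19 in Akt1+/- livers at 8 weeks, and 7.52, 7.64, 7.58 and 7.70 against 7.38, 7.50, 7.31 and 7.41 at 35 weeks. The groups did not overlap at either age, and the difference was -0.30 (SE 0.07, adjusted p = 0.0353). Ndufb2 read 5.82, 5.95 and 6.28 against 5.79, 5.59 and 5.64 at 8 weeks, and 5.77, 5.93, 6.04 and 5.96 against 5.59, 5.75, 5.64 and 5.66 at 35 weeks. Its groups were separate at both ages too, with the closest pair of arrays at 8 weeks 5.82 and 5.79. Its difference was -0.31 (SE 0.08, adjusted p = 0.0457, and 0.0605 with same-numbered older arrays as a block). A second, dim probe of Ndufb2 read 0.45 higher in Akt1+/- livers, and with the mean of both probes the difference of the gene was 0.07.

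Ndufa2, a small accessory subunit of the N module, read 5.63, 5.69 and 5.99 in young wild-type livers, whereas the young Akt1+/- livers read 5.31, 5.39 and 5.26. At 35 weeks it read 5.42, 5.76, 5.66 and 5.67 against 5.39, 5.54, 5.44 and 5.40. The older groups overlapped through the lowest wild-type array, although each Akt1+/- array was below the wild-type array of the same number. Its difference was -0.32 (SE 0.08, adjusted p = 0.0367). The calls of Ndufa2, Ndufb2 and Ndufb9 were each lost in 10 of the 14 runs that left out 1 array. Leaving out any of 9 arrays gave 1 called member, leaving out wild-type replicate 1 at 35 weeks gave 11, and leaving out wild-type replicate 1 at 8 weeks, Akt1+/- replicate 1 at 8 weeks or Akt1+/- replicate 2 at 35 weeks gave 6.

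By role, the median genotype difference in liver was -0.21 in the N module, -0.17 in the Q module, -0.19 in the proximal arm and -0.26 in the distal arm. The 7 core subunits had a median of -0.15, between -0.21 for Ndufv1, which binds NADH and the flavin (adjusted p = 0.0538), and 0.02 for Ndufv2, and none was called. Of the accessory subunits, Ndufa9 was nearest the threshold (-0.32, adjusted p = 0.0511). The 3 members above 0 were Ndufab1, the acyl carrier protein (0.08), Ndufa8 (0.07) and Ndufv2. Ndufab1 was the only member with every Akt1+/- array above every wild-type array at 8 weeks, which held for 11% of all genes, and 2 of its dimmer probes read 0.42 and 0.31.

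On single livers, 18 members had every Akt1+/- array below every wild-type array at 8 weeks, when 14.3% of all genes did. At 35 weeks the number was 7, when 3.73% of genes did. These 7 were Ndufa13, Ndufb2, Ndufb7, Ndufb9, Ndufb10, Ndufc2 and Ndufv1. The median difference was -0.23 at 8 weeks and -0.16 at 35 weeks. Limma called 0 members at 8 weeks alone, when 2.17% of genes were called, and 0 at 35 weeks, when 3.28% were. The interaction of genotype and age had 0 members called by limma, and 0 at an unadjusted p below 0.05, when 0.497% of genes were called and 2427 had such a p; the two-way ANOVA of the methods also called 0 members.

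**Figure D3:**
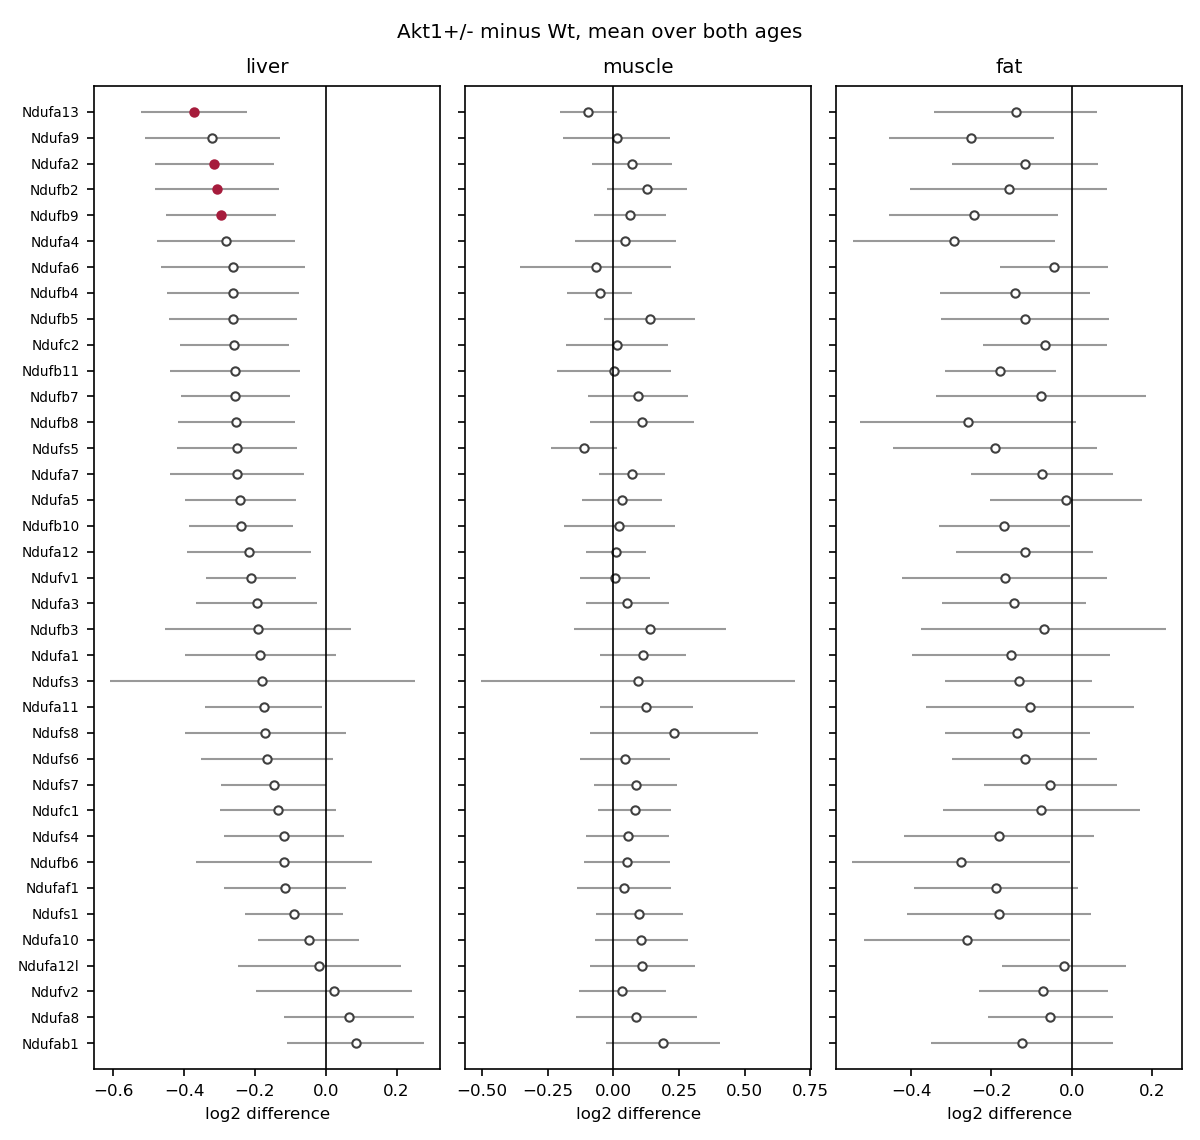
Log2 difference between Akt1+/- and wild-type mice, averaged over both ages, for 37 of the 38 Nduf genes in the 3 tissues, with 95% confidence intervals, in red where the adjusted p was below 0.05. Only 4 members in liver are red, and of those drawn nearly all lie below 0 in liver, all in fat and 4 in muscle.

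Several measures moved with genotype in liver, and their part in the result was not tested. Of the 38 members, 31 were in the brightest of 10 equal classes of genes in liver, and this class had a median genotype difference of -0.13, against 0.30 for the dimmest class. The summed level of 8 leukocyte genes was 40.0 to 53.6 in wild-type livers at 8 weeks, when the Akt1+/- livers had 65.8 to 82.9, and 81.9 to 102 against 69.6 to 118 at 35 weeks. Of these genes the T-cell marker Cd3e was called higher in Akt1+/- livers (0.47, adjusted p = 0.0292), and of the 3 white-fat genes tested Lipe was (0.34, adjusted p = 0.0482). The hepatocyte markers tested all read below 0 in Akt1+/- livers, and none was called. They were Tat (-0.43), Cps1 (-0.35, limma adjusted p = 0.052), Alb (-0.19), Apoa1 (-0.15), Cyp2e1 (-0.13) and Ttr (-0.05). The median of the members was -0.07 under quantile normalisation, with 0 called, and -0.33 under scaling to the median, with 22 called, where the median of all genes moved to -0.11. Without the 2 livers that read Myh7 high the median was -0.19 and 2 members were called. Ndufa13 kept its call (-0.40, adjusted p = 0.0319), and Ndufa2, Ndufb2 and Ndufb9 did not (adjusted p = 0.126, 0.0742 and 0.127). The median of the interaction was 0.07 with these livers and 0.02 without them, and 0 members were called either way. Genotype and slide cannot be told apart in liver at either age, and when slides were treated as a random effect 1 member was called.

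Other lists of respiratory genes in liver are read against the 2.37% of all genes called lower and the 3.38% called higher. Complex III had 3 of 9 genes lower in Akt1+/- livers and all 9 below 0 (median -0.29), and ATP synthase 2 of 17 lower with all 17 below 0 (median -0.23). For the Cox genes, subunits and assembly factors of complex IV together, it was 4 of 23 (median -0.15), the assembly factor Cox14 among them. For complex II it was 1 of 4 (median -0.17). Of 78 mitochondrial ribosomal proteins 2 were lower (median -0.07). Of 13 regulators of mitochondrial biogenesis none was lower and 1 was higher. No other assembly factor of complex I out of 11, and none of the 6 complex I genes under older names, was called.

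In muscle, no effect of genotype on the members was detectable. The median difference was 0.07 with 34 of 38 above 0, the range was -0.11 for Ndufs5 to 0.23 for Ndufs8, and limma called 0 members, as it called 0% of the 17141 genes tested. At an unadjusted p below 0.05 the count was 0 members and 3140 genes, and the two-way ANOVA called 0 members. Ndufs8, an iron-sulfur subunit of the Q module, had the largest difference (adjusted p = 0.405, 95% confidence interval -0.09 to 0.55). The median rested on Akt1+/- replicate 3 at 35 weeks, without which it was 0.01, and was -0.01 under scaling to the median. Ndufa13 and Ndufs5 were lower on every Akt1+/- array at 8 weeks, and no member was separate at 35 weeks, when 14.8% of genes were lower in this way at 8 weeks and 1.74% lower and 3.81% higher at 35 weeks. On the 1 slide that held both genotypes of muscle, 3 wild-type and 1 Akt1+/- arrays at 8 weeks, the median difference was 0.1. There 34 members were above 0 and 4 below, in a comparison that has no replicate on 1 side. The 5 genes of the Q module were all above 0 (median 0.09), and none passed the test.

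In fat the members read lower in Akt1+/- mice at 8 weeks and on both sides of 0 at 35 weeks. Over both ages all 38 members were below 0, between -0.29 for Ndufa4 and -0.01 for Ndufa5, with a median of -0.13 against -0.01 for all genes. Limma called 0 members, when 0.78% of the 18344 genes tested were called, and 7 members and 3514 genes had an unadjusted p below 0.05. The ANOVA of the methods gave 0 members after adjustment and 1 at its own threshold. At 8 weeks 37 members were below 0 with a median of -0.27, down to -0.66 for Ndufb6. At 35 weeks 24 were above 0 with a median of 0.03. Limma called 0 members at 8 weeks alone, when 1.8% of genes were called, and 0 at 35 weeks, when 1.69% were. On single arrays, 11 members had every Akt1+/- array below every wild-type array at 8 weeks, when 15.3% of genes did, and 0 at 35 weeks, when 5.56% did.

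The interaction of genotype and age in fat was tested directly. The median was 0.33, 35 of 38 members were above 0, 11 members and 3729 genes had an unadjusted p below 0.05 and 1 member, Ndufv2, was called, when 0.6% of genes were called higher. Ndufv2 read 2.44, 2.81 and 2.45 in wild-type against 2.10, 2.18 and 2.18 in Akt1+/- fat at 8 weeks. At 35 weeks it read 2.46, 2.49, 2.48 and 2.34 in wild-type against 2.57, 2.85, 2.75 and 2.70 in Akt1+/- fat. Every Akt1+/- array was below the wild-type arrays at 8 weeks and above them at 35 weeks. The interaction was 0.69 (SE 0.15, adjusted p = 0.0428, and 0.0743 with same-numbered older arrays as a block). It also missed the threshold in 11 of the 14 runs that left out 1 array. The interaction was of similar size for Ndufb6 (0.77, adjusted p = 0.122), Ndufa10 (0.74, adjusted p = 0.119) and Ndufa9 (0.68, adjusted p = 0.0879), and these were not called.

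The wild-type fat arrays at 8 weeks stood apart from each other. Replicate 1 was the lowest of the 14 fat arrays for 13 members and replicate 2 the highest for 12. Their medians over the members were between 4.24 and 4.67, those of the Akt1+/- arrays between 4.20 and 4.29. Without wild-type replicate 1 the median interaction was 0.49. Within the 1 slide that held both genotypes, 1 wild-type and 3 Akt1+/- arrays, the median difference at 8 weeks was -0.4 with 38 members below 0, a comparison that has no replicate on 1 side. The summed level of 7 brown-fat genes in fat was 6.36 to 17.5 and 4.13 to 17.3 at 8 weeks in wild-type and Akt1+/- mice, and 4.03 to 6.12 and 3.51 to 28.2 at 35 weeks. For the 3 of 5 listed blood genes that were on the array, 2 of them well above background on every fat array, it was 116 to 246 and 90.3 to 113, and then 63.3 to 97.2 and 43.9 to 139. Some markers of other tissues moved with genotype in fat too. At 8 weeks the liver gene Alb was lower in Akt1+/- fat (-3.06, adjusted p = 0.0391) and read 3.31 in the interaction (adjusted p = 0.0697), and the macrophage genes Adgre1 and Cd68 read 0.54 and 0.62 at 8 weeks without passing the test. The sum of 8 leukocyte genes was 186 to 219 in wild-type and 201 to 223 in Akt1+/- fat at 8 weeks, so that the genotypes overlapped. The summed level of 8 muscle genes was 29.5 to 94.7 and 14.6 to 38.3 at 8 weeks, and 24.7 to 53.9 and 20.1 to 81.6 at 35 weeks, when muscle itself had 4050 or more. Of these genes Myh4, a fast myosin, was lower in Akt1+/- fat at 35 weeks (-3.02, adjusted p = 0.0292), as was Myh2 of the slow-muscle list (-2.78, adjusted p = 0.0439), and in the interaction Myh1 read -3.74 and Ckm -2.93 without passing the test. The white-fat genes did not keep to 1 level either, since the sum of 7 of them was 1490 to 1720 in wild-type and 1120 to 1360 in Akt1+/- fat at 35 weeks, without overlap. The white-fat gene Cfd was called lower in Akt1+/- fat at 35 weeks (-0.54, limma adjusted p = 0.00721), as was the liver gene Cyp2e1 (-0.43, adjusted p = 0.0406). At that age each genotype had a slide and a scan day of its own in fat, so that genotype, slide and scan day cannot be told apart there. The part of these cell types and of slide in the interaction was not tested.

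Whether the genotype effect differed between tissues was tested in the fit over all arrays. The difference between liver and muscle was below 0 for all 38 members with a median of -0.26, largest for Ndufb2 (-0.43), Ndufs8 (-0.40) and Ndufb5 (-0.40). Limma called 0 members, when 0.917% of genes were called, and 21 members and 3237 of the 19858 genes had an unadjusted p below 0.05. Between muscle and fat the median was 0.19 with 37 above 0, 0 called, when 0.765% of genes were, and 10 members and 3096 genes at an unadjusted p below 0.05. Between liver and fat the median was -0.06 with 27 below 0, 0 called, when 4.2% of genes were, and 2 members and 3887 genes at an unadjusted p below 0.05. These comparisons share arrays, so that their counts are not independent of each other. No member was shown to respond to Akt1 haploinsufficiency differently in 1 tissue than in another.

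More members were called for age than for genotype in muscle and in fat. In muscle 14 members were higher and 2 lower at 35 weeks than at 8 weeks, when 16.3% of genes were called higher and 14.4% lower. The members spanned -0.25 to 0.34, with a median of 0.13 and 28 above 0. On single arrays, 7 members had every older array above every younger one, when 5.43% of genes did.

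Members of each arm and module rose with age in muscle, 5 of 11 in the distal and 3 of 10 in the proximal membrane arm, 3 of 9 in the N module and 2 of 5 in the Q module, and these shares were not tested against each other. All 11 genes of the distal arm were above 0, with a median of 0.23, and those that rose were Ndufb10, Ndufb4, Ndufb9, Ndufb8 and Ndufb2. Ndufb4 read 6.86, 6.84 and 6.92 in wild-type against 6.90, 6.72 and 6.69 in Akt1+/- muscle at 8 weeks. At 35 weeks it read 7.23, 7.21, 7.10 and 7.10 in wild-type against 7.13, 7.14, 7.3 and 7.07 in Akt1+/- muscle. All older arrays were above all younger ones, by a mean of 0.34 (adjusted p = 0.00101). Ndufb9 was separate in the same way, from 8.15 to 8.27 at 8 weeks and from 8.42 to 8.86 at 35 weeks (0.34, adjusted p = 0.00205). Ndufb10 read 7.68 to 8.00 at 8 weeks and 7.98 to 8.58 at 35 weeks, with a small overlap, and rose by 0.34 (adjusted p = 0.0186).

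In the proximal arm Ndufa3, Ndufa13 and Ndufs5 rose, in the N module Ndufa7, Ndufv1 and Ndufa2, and in the Q module Ndufa5 and Ndufs7. Ndufa4 rose by 0.32 (adjusted p = 0.0166). The core subunits did not move together, since Ndufv1 and Ndufs7 rose whereas Ndufv2 fell, and the calls of Ndufv1 and Ndufs7 were lost in 3 and 11 of the 14 runs that left out 1 array. Ndufv2 read 5.46, 5.54 and 5.63 in wild-type against 5.65, 5.39 and 5.33 in Akt1+/- muscle at 8 weeks, and 5.15, 5.21, 5.21 and 5.17 and then 5.20, 5.27, 5.62 and 5.28 at 35 weeks. Akt1+/- replicate 3, at 5.62, was the only older array within the range of the younger ones. Ndufv2 fell by 0.23 (adjusted p = 0.0341), and this call was lost in 9 of those runs. Ndufs3 and Ndufs8 read -0.25 and -0.23 without passing the test. With same-numbered older arrays as a block their adjusted p was 0.0414 and 0.0488. Older replicate 1 read Ndufs3 low in both genotypes, at 4.86 and 5.06 against group means of 5.88 and 6.06, and why the block moved these values was not tested.

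**Figure D4:**
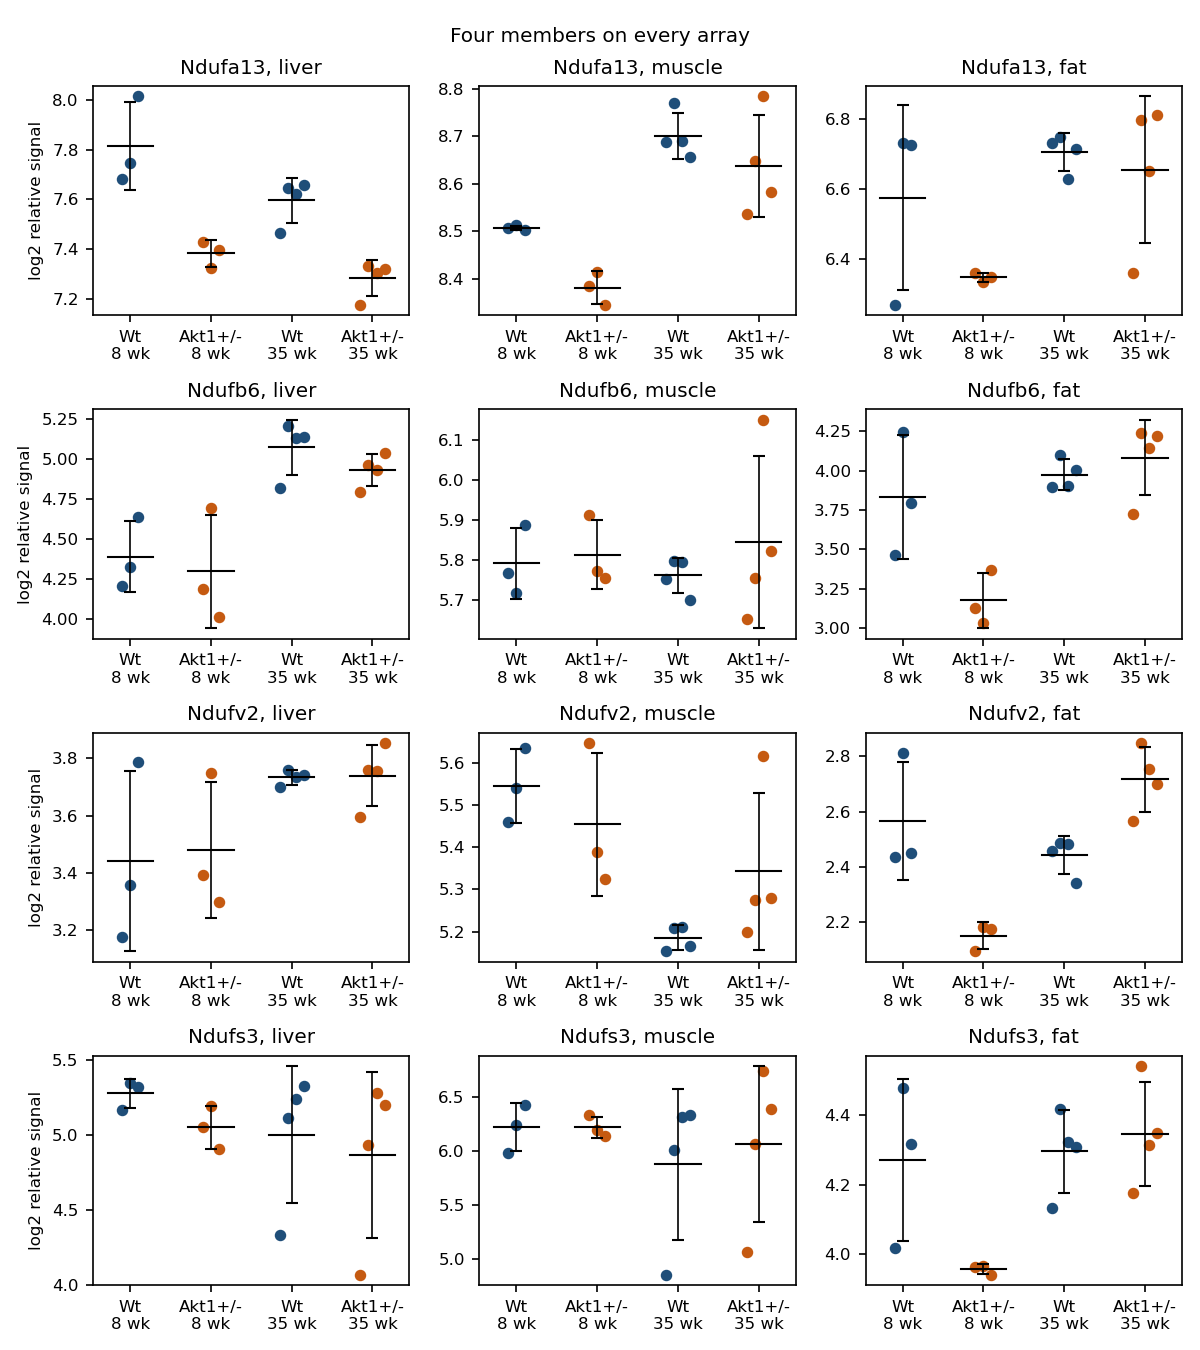
Log2 level of Ndufa13, Ndufb6, Ndufv2 and Ndufs3 on every array of the 3 tissues by genotype and age, with the group mean and SD. Ndufa13 in liver is lower in the Akt1+/- groups at both ages, Ndufb6 in liver is higher at 35 weeks, and Ndufs3 at 35 weeks spreads through replicate 1, which reads 4.33 and 4.07 in liver.

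The count of members that changed with age in muscle depended on the normalisation. It was 4 under quantile normalisation, where the median was 0.01, 6 with normexp background correction and 8 under scaling to the median. Without wild-type replicate 2 at 8 weeks it was 7, and without wild-type replicate 1 or Akt1+/- replicate 2 of that age 9. The summed level of 8 slow-muscle genes was 851 to 1410 and 1360 to 1540 at 8 weeks in wild-type and Akt1+/- muscle, and 1750 to 2060 and 1620 to 1840 at 35 weeks, with 6 of the 8 genes higher with age, and its part in the result was not tested. Age and the day of scanning cannot be told apart in any of the tissues, since no scan day held both ages of 1 tissue. Other lists in muscle are read against the same shares of all genes, 16.3% higher and 14.4% lower. Of the Cox genes 5 of 24 rose and 1 fell, of the mitochondrial ribosomal proteins 14 of 78 rose and 6 fell, of 11 other complex I assembly factors 4 fell, and of the 6 complex I genes under older names 2 rose.

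In fat 10 members rose with age and none fell, when 9.99% of genes were called higher. The median was 0.24, and 36 of 38 were above 0. The median level over the members had a group mean of 4.24 at 8 weeks and 4.58 at 35 weeks in Akt1+/- fat, and of 4.52 and 4.54 in wild-type fat, so that the averaged difference came mostly from the Akt1+/- groups. The N module held 5 of the 10, Ndufs6, Ndufa2, Ndufa6, Ndufa7 and Ndufa12, all accessory subunits. The distal arm held Ndufb6, Ndufb4 and Ndufb11, the proximal arm Ndufa3 and the Q module Ndufs7, the only core subunit called, whose call was lost in 9 of the 14 runs that left out 1 array.

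Ndufa3, a small subunit of the proximal arm, read 3.21, 3.54 and 3.56 in wild-type against 3.16, 3.08 and 3.18 in Akt1+/- fat at 8 weeks, and 3.71, 3.75, 3.70 and 3.75 and then 3.48, 3.94, 3.67 and 3.85 at 35 weeks. Only Akt1+/- replicate 1 at 35 weeks lay among the younger arrays. It rose by 0.44 (adjusted p = 0.00432). Ndufs6 rose by 0.39 (adjusted p = 0.00822), from a range of 3.73 to 4.24 to one of 4.09 to 4.46, and its other probes gave 0.53 and 0.37. Ndufb6, a subunit of the distal arm, rose by 0.52 (adjusted p = 0.0132). It read 3.46, 4.25 and 3.79 in wild-type against 3.13, 3.03 and 3.37 in Akt1+/- fat at 8 weeks, and between 3.89 and 4.10 in wild-type against 3.73, 4.24, 4.14 and 4.22 in Akt1+/- fat at 35 weeks. Its lowest arrays were the 3 young Akt1+/- arrays, and the wild-type groups overlapped. Without Akt1+/- replicate 1 at 35 weeks 20 members rose with age, and without Akt1+/- replicate 1 or 2 at 8 weeks 6 did. The count of members called for age in fat was 16 with normexp and quantile normalisation and 6 under scaling to the median. In 1 fit over all 42 arrays it was 18.

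No change with age in fat was detectable for Ndufs1 (0.03), a core subunit of the N module, and Ndufb5 and Ndufs4 were the only members below 0, both at -0.03. Among the other lists, 23 of 78 mitochondrial ribosomal proteins rose and none fell, 4 of 17 ATP synthase genes rose, and no gene of complex II or III was called, against the 9.99% of all genes called higher. Of the markers of other cell types in fat, the macrophage gene Adgre1 fell with age (-0.45, adjusted p = 0.00441), 2 of 8 muscle genes rose and 1 slow-muscle gene of 6 tested fell. The summed brown-fat and blood genes given above were lower at 35 weeks without overlap in wild-type fat, and overlapped between ages in Akt1+/- fat. The part of these cell types in the differences with age was not tested.

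In liver the members lay on both sides of 0 for age. There were 20 above and 18 below 0, with a median of 0.01, and 4 were called in either direction, when 34.5% of all genes were. Ndufb6, Ndufa10 and Ndufc2 rose, when 19.9% of genes were called higher, and Ndufb5 fell. The count of 4 depended on the normalisation. It was 14 with normexp and quantile normalisation, 11 with quantile normalisation alone and 13 under scaling to the median. The 34.5% belongs to the main scaling, so whether the members were called less often than all genes was not settled. Ndufb6 read 4.21, 4.33 and 4.64 in wild-type against 4.19, 4.70 and 4.01 in Akt1+/- liver at 8 weeks. At 35 weeks it read 4.82, 5.21, 5.13 and 5.14 in wild-type against 4.79, 4.97, 4.93 and 5.04 in Akt1+/- liver. Every older array was above every younger one, the only member of which this held, when it held for 4.48% of genes. It rose by 0.66 (SE 0.12, adjusted p = 0.00106).

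Ndufb5, another subunit of the distal arm, went the other way. It read 3.04, 3.11 and 3.41 in wild-type against 2.87, 2.65 and 2.75 in Akt1+/- liver at 8 weeks, and 2.46, 2.59, 2.70 and 2.72 and then 2.41, 2.43, 2.55 and 2.71 at 35 weeks. The young wild-type arrays were highest, and the young Akt1+/- arrays overlapped the older ones. The difference with age was -0.40 (SE 0.08, adjusted p = 0.00304). Both Ndufb6 and Ndufb5 passed the test whichever array was left out and under each normalisation tried. Ndufa10, at 0.26, and Ndufc2, at 0.24, were not called without both livers that read Myh7 high (adjusted p = 0.078 and 0.0532). The median was 0.01 with and without these livers. Without wild-type replicate 3 at 8 weeks or wild-type replicate 1 at 35 weeks 7 members were called for age. With same-numbered older arrays as a block 7 members were called, among them Ndufs3 (-0.23, adjusted p = 0.0352). The summed leukocyte genes given above were lowest in the young wild-type livers, and their part in these differences was not tested.

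**Figure D5:**
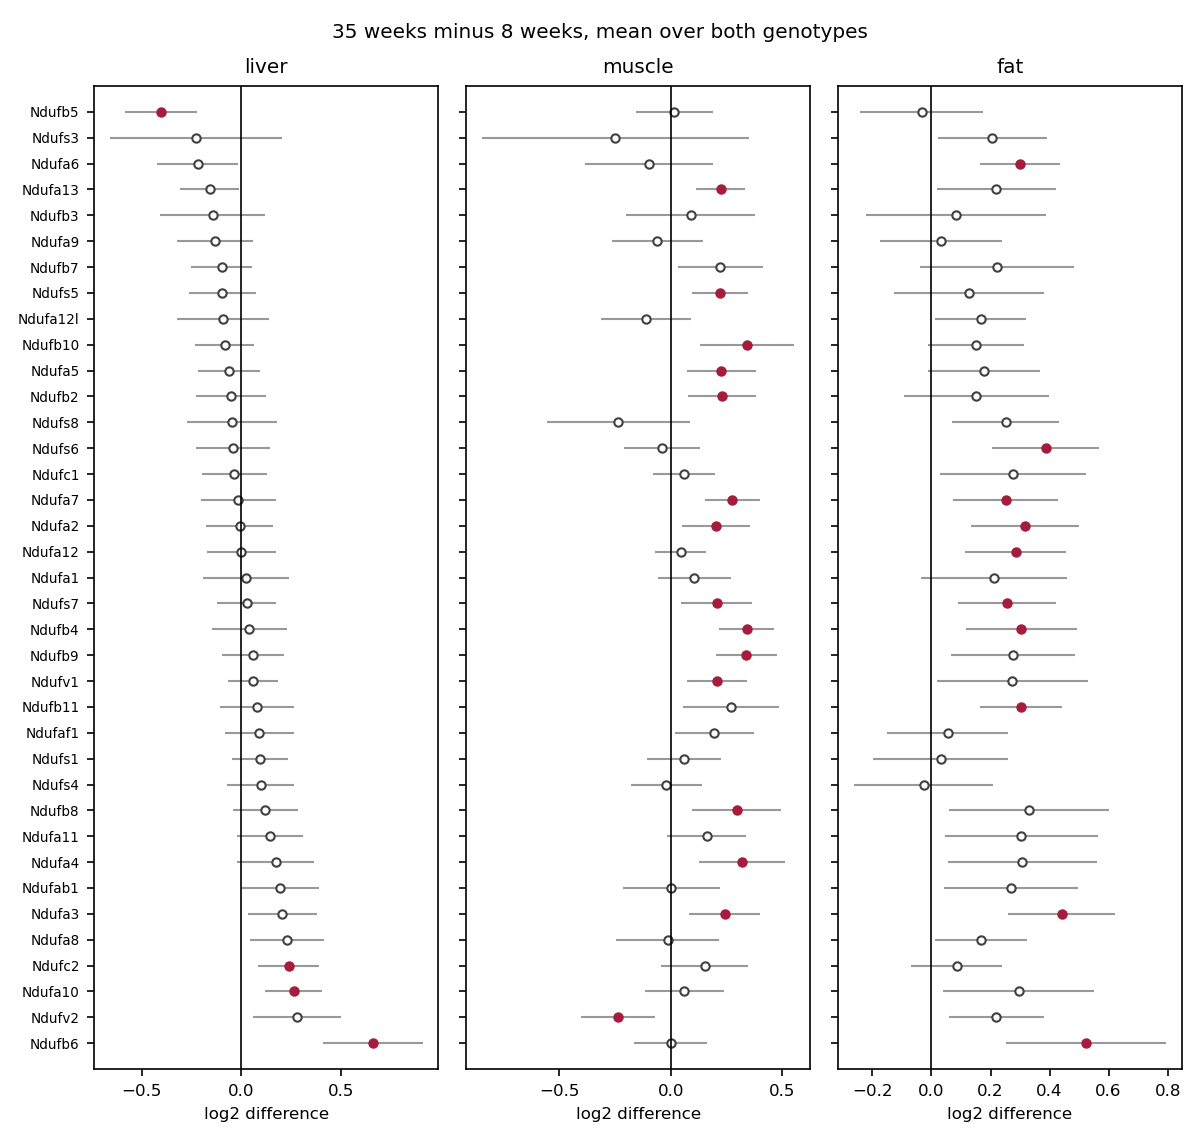
Log2 difference between 35 and 8 weeks, averaged over both genotypes, for 37 of the 38 Nduf genes in the 3 tissues, with 95% confidence intervals, in red where the adjusted p was below 0.05. In muscle 14 members drawn are called above and 1 below 0, in fat 10 above, and in liver 3 above and 1 below.

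The interaction of genotype and age in muscle had 0 members called, and 0 at an unadjusted p below 0.05, when limma called 0% of genes and 1464 genes had such a p; the ANOVA called 0 members too. Its median was 0.04, and -0.07 without Akt1+/- replicate 3 at 35 weeks.

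Of the 38 members, 13 had more than 1 probe, and the values of bright probes are given here for some of them. In liver the genotype difference was -0.25 and -0.26 for the probes of Ndufa7 and -0.18 and -0.23 for those of Ndufa1. For Ndufa12 it was -0.22, -0.22 and -0.12, and for Ndufa11 -0.18 and -0.26. Dim probes of Ndufb2, Ndufs4 and Ndufs1 departed from the bright ones, and some of these were well above background on few arrays or none. Dimmer probes of Ndufab1 read higher than its brightest one, as given above.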

How the data were processed

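Total RNA of 42 tissue samples was measured on 1-colour arrays. The deposited scanner files of the authors hold the intensity of each spot after Agilent Feature Extraction (9.1 in the submitters' processing notes, 9.5.3.1 in the file headers), with background subtracted. A deposited table of the authors holds log2 values of the same arrays, which were scaled to the array's 75th percentile (that percentile is close to 0 and column medians lie between -3.69 and -3.27). It was used as an alternative. Groups were taken from the sample titles.

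Here the processed intensity was log2-transformed, and each array's 75th percentile subtracted. Outlier spots were left out and spots of 1 probe averaged. The brightest probe stood for a gene, which was kept if well above background on 3 arrays of 1 group. Names came from RefSeq accessions for 24375 of 41174 probes, from current symbols for 6301 and from older symbols for 2426, and 8072 kept the name on the array. Group means were fitted in limma 3.58.1 (R 4.3.3), per tissue, or over all arrays between tissues, with Benjamini-Hochberg adjustment over all genes tested and calls at an adjusted p below 0.05. The fits were tested on simulated data. The rule for named genes took every member called for genotype, the 4 lowest and 4 highest differences of each comparison, the 7 core subunits, Ndufa4 and Akt1, and other members were named after their values were seen. The members, roles and lists were chosen with earlier results of these data known. 1 member is counted but its own values are not reported here. No arrays were identical (highest correlation 0.9908).

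At 35 weeks same-numbered arrays of both genotypes deviated together (correlations of 0.107 to 0.523 over 12 pairs), for a reason that was not tested, and at 8 weeks they did not (-0.196 to 0.07 over 9 pairs). The numbers were therefore taken to pair arrays at 35 weeks only. Alternatives were normexp with quantile normalisation (offset 50), quantile normalisation, median scaling, the authors' values, other probe rules and filters, slide or replicate blocks, the two-way ANOVA of the methods (threshold 0.01) and leaving out each array. Promoter windows were read from RefSeq (GRCm38.p6). Array coordinates are those of mm8. Python 3.11.15 with pandas 2.3.3 and matplotlib 3.10.9 made the summaries and plots.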

Additional observations from a re-analysis of the deposited data

Results flagged for a closer look

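Within groups of 4 arrays, 23 of 234 sets of values held an array far from the other 3 by Dixon's test. Chance gives about 5% for independent sets. These sets share arrays and are not independent, so the count is not read against that share. On Akt1+/- muscle replicate 3 at 35 weeks, the high values were Ndufa10 at 5.67, Ndufa5 at 7.98, Ndufa8 at 6.85, Ndufaf1 at 4.16, Ndufb8 at 8.33, Ndufs4 at 6.29 and Ndufv1 at 7.71. On wild-type liver replicate 1 at 35 weeks, the low values were Ndufa3 at 4.34, Ndufa4 at 6.31, Ndufa7 at 5.75, Ndufa9 at 5.37 and Ndufs6 at 5.41. In Akt1+/- liver at 35 weeks Ndufa4 stood apart in replicate 2 at 6.49, and replicate 1 had a low median over the members, 5.24. In wild-type muscle at 35 weeks Ndufa4 (7.03) and Ndufa7 (6.52) stood apart in replicate 4, and Ndufb11 (7.57) and Ndufb3 (5.67) in replicate 1.

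In wild-type fat at 35 weeks Ndufa12l stood apart in replicate 1 at 1.75, and Ndufb9 (6.7) and Ndufs5 (6.55) in replicate 2. In Akt1+/- fat replicate 1 at 35 weeks Ndufs7 (4.45) and Ndufv1 (5.13) were low. The genotype effect of Ndufv2 in fat differed between the ages by 0.6873 in the test of the interaction.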

How the results depend on the processing

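Of the alternative values of the counts of called members, 502 were within 1.5 times the value given and 68 were not. The 502 include counts that were 0 and stayed 0, and counts of 38 between tissues, which had little room to move. Of the medians 539 moved by less than the spread between arrays, and of the values of single genes 4032 kept direction and call, 135 lost the call and 58 gained one. For genotype in liver (4 called) the count was 0 under quantile normalisation, 22 under scaling to the median and 1 without the filter on dim probes. It was 1 with the slide as a random block, 8 by the two-way ANOVA after adjustment and 16 at its unadjusted threshold. Without both livers that read Myh7 high it was 2, and in 1 fit over all 42 arrays 13. Leaving out single arrays gave 1 to 11, with 11 without wild-type replicate 1 at 35 weeks. With the mean of all probes, Ndufb2 and Akt1 in liver turned to 0.0727 each, since each has a second, dim probe. For age in liver (4) it was 14 with normexp, 11 with quantile normalisation, 13 with median scaling, 2 without both livers and 7 in the 42-array fit, and 3 to 7 without single arrays. The median for age in liver was -0.183 under median scaling, which moved the median of all genes to -0.178, and -0.0357 to 0.053 without single arrays. For age in muscle (16) the count was 6 with normexp, 4 with quantile normalisation, 8 with median scaling and 7 without the filter, and 7 to 16 without single arrays. For age in fat (10) it was 16 with normexp, 6 with median scaling and 18 in the 42-array fit, and 6 to 20 without single arrays. For genotype in fat (0) the unadjusted ANOVA gave 1, and single arrays 0 to 1. For the interaction in fat (1) it was 3 with normexp, 3 by the unadjusted ANOVA, 5 in the 42-array fit, 0 under median scaling, in the authors' table and if dim probes were kept, and 0 to 3 without single arrays, and its median 0.241 to 0.487. The difference of the genotype effect between liver and fat had 1 member called under median scaling. Those between liver and muscle and between muscle and fat had 0 to 3 without single arrays, and muscle against liver 37 to 38.

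Turned medians were, for the interaction in liver, -0.0156 with normexp, -0.0116 with quantile normalisation, -0.0064 with median scaling and -0.0537 to 0.144 without single arrays. For genotype in muscle it was -0.00795 with median scaling, for the interaction in muscle -0.0656 to 0.0815 without single arrays, and for the difference between liver and fat 0.0542 with normexp, 0.0619 with quantile normalisation and -0.102 to 0.0152 without single arrays. Between fat and liver, normexp gave 0.454 for Ndufc2, 0.612 for Ndufa7, 0.691 for Ndufs5 and 0.00195 for Ndufv1, and quantile normalisation 0.398, 0.586 and 0.68 for the same genes without Ndufv1. Their medians were -0.116 and -0.125, and those of muscle against fat 1.37 and 1.36. Ndufa12l between muscle and fat was -0.000357 with quantile normalisation. Median scaling moved the median of all genes to -0.219 between fat and liver and to 0.185 between muscle and fat. The cause of these shifts was not tested.

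With a replicate block at both ages, 1 member was called for genotype in liver and 0 for the interaction in fat. With the block at 35 weeks only, chosen after seeing the data like the run without both livers and the values within slides, 7 were called for age in liver and 0 for the interaction in fat, and no other count moved by over 1.5 times. The Akt1 difference in muscle was called with the block at both ages (adjusted p = 0.0397), and those in liver and fat were not (0.0717 and 0.0694).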

Other observations

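Ppargc1a, which encodes a coactivator of mitochondrial biogenesis, was a member of the list of 13 regulators. In muscle it read from 0.40 to 4.42, and its highest value was on Akt1+/- replicate 3 at 35 weeks, the array that was highest for 36 of the 38 Nduf genes. Its next values, 3.80 on wild-type replicate 4 and 3.39 on wild-type replicate 3 at 35 weeks and 3.37 on wild-type replicate 3 at 8 weeks, were on arrays whose median over the Nduf genes was not above 6.57. It is given as a description, with no test.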
